A study of Mus musculus with 8 samples.

Results

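The genes described here are 7 genes known for transcription at the 2-cell stage of the mouse embryo, Zfp352, Calcoco2, Slc34a2, Zfp750, Arg2, Spz1 and Rnf168. They were taken by symbol, without the multi-copy gene clusters of that stage. RefSeq's gene table for GRCm38.p6 (mm10, the build of the files) lists 21887 protein-coding genes, and all 7 are in it. Every region of open chromatin that touched the body of such a gene or the 50 kb on each side was taken, 102 of the 209105 regions in the series. The assay was ATAC-seq, which uses a transposase to cut and tag accessible DNA, and the cells were mouse embryonic stem cells.

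There were 4 groups with 2 replicates each, 8 samples in all, and the submitters deposited 1 list of regions per group, made from both replicates. Ubc9-depleted cells are v6.5 cells with a TET-OFF construct, in which 72 hours of doxycycline shut off Ubc9, and Ubc9-control cells are v6.5 cells labelled as the control. The labels tie the drug to the depletion alone, so the drug and the loss of Ubc9 cannot be told apart. H1 triple-KO cells carry the genotype H1.2-/-H1.3-/-H1.4-/-, and H1 WT cells are labelled H1-WT. Both are labelled as taken from an earlier publication, with no number of clones. All groups had been grown for 4 passages in 2i/LIF. With 1 list per group the spread between replicates is unknown, and differences are described without a test. In bulk cells, a region open in few cells and one weakly open in all cannot be told apart.

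When the mouse embryo reaches its 2-cell stage, its own genome is switched on, and a set of genes and of retroviral repeats is transcribed that later cells keep silent. A small and changing share of embryonic stem cells in culture re-enters a state like it. SUMO, a small protein that the enzyme Ubc9 attaches to its targets, and linker histone H1, which binds DNA at the nucleosome and compacts chromatin, are both known to take part in silencing. The comparisons ask where chromatin around these genes is open after the loss of either.

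Depleted cells had the most open regions around the 7 genes, 33, against 20 in Ubc9-control cells, 24 in H1 triple-knockout cells and 25 in H1 wild-type cells. The median per gene was 5 regions in depleted, 2 in Ubc9-control, 3 in knockout and 3 in wild-type cells. Over all protein-coding genes these medians were 4, 4, 5 and 4. Thus the depleted list was slightly above its median over all genes, and the other lists were below theirs. The excess over the other lists lay mainly around Zfp352 and Spz1, where the depleted list held 7 and 6 regions and each of the other lists between 1 and 3. The start of Zfp352, a zinc-finger gene that marks the 2-cell embryo, lay in a region of depleted cells and in none of the other 3 lists. The starts of Slc34a2 and Rnf168 lay in a region of H1 triple-knockout cells only, with low scores of 80.2 and 84.7. Arg2 had an open end in all 4 lists, and Spz1 in none.

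The starts of Zfp352, Slc34a2 and Rnf168 are shown as RefSeq gives them (GRCm38.p6, 250 bases before to 50 after the start, read 5′ to 3′ on the strand of the gene, here plus for all of them), because a region in a single list covered each. The gene starts at base 251. In Zfp352 (chr4:90218570-90218869) capitals mark the letters TAATCC, the motif discussed next. In Slc34a2 (chr5:53049103-53049402) and Rnf168 (chr16:32277211-32277510) they mark the bases inside the knockout region.
Zfp352: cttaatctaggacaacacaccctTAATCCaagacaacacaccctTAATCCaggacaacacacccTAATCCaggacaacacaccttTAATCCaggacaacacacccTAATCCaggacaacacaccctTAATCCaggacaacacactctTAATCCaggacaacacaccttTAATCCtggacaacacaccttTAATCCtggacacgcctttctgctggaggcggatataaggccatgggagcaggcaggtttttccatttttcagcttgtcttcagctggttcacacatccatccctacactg
Slc34a2: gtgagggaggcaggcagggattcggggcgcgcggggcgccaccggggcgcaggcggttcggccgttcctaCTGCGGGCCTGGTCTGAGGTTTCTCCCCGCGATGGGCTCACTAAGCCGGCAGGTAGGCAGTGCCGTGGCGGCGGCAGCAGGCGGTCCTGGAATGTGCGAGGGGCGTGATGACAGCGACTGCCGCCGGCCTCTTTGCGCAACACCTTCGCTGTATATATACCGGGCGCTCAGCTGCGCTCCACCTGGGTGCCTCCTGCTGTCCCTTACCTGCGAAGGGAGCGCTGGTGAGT
Rnf168: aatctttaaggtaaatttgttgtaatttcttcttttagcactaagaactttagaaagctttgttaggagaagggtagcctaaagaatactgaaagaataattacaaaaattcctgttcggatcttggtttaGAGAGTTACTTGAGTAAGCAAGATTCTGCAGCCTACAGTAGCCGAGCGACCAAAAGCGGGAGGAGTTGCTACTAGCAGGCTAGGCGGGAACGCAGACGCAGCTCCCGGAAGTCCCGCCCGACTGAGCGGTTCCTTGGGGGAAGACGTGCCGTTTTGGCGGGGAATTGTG

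The depleted region covered all 300 bases of the Zfp352 sequence. Knockout regions covered 230 bases of Slc34a2 and 169 of Rnf168, the start included in both. The Zfp352 sequence is mostly a short repeat. The letters GGATTA or their reverse, TAATCC, which OBOX homeobox proteins are known to bind, occur 9 times in it, the first from base 24, the last from base 190, and at spacings of 20 or 21 bases. Of 21263 promoter windows of the same length, 6.42% hold the motif at least once, and Zfp352 is the only one with 9. The next, Gtf2ird1, has 4 and was named after its value was seen. A match is a match of letters and not a measured binding site.

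**Figure D1:**
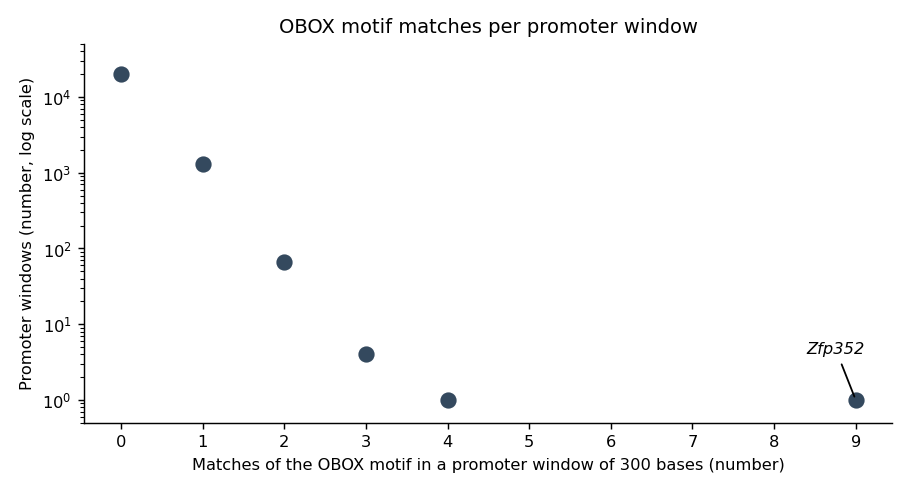
Number of promoter windows of 300 bases (y axis, log scale) by the number of OBOX motif matches in them (x axis), each point standing for all windows with that number. Of 21263 windows, 19897 had no match, 1294 had 1, and Zfp352 lies alone at 9.

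The other motifs searched, on both strands, were the TATA box TATAAA (in 12.6% of all windows), CCAAT (38.2%), the GC box GGGCGG (46.2%), the E-box CACGTG (7.84%), TCAAGGTCA of NR5A2 (0.334%), AGATAA of GATA factors (9.65%), GCCATNTT of YY1 (6.37%) and the DUX motif (0.202%). Of these, a GC box in Rnf168 was the 1 match in the windows of these genes, and for the others this says only that those letters are not there. The starts differ in CpG, the dinucleotide that is dense at many widely used promoters. Zfp352 has 2 CpG and 47.0% G and C, Slc34a2 30 and 68.7%, and Rnf168 14 and 46.3%, beside a median of 13 and 56.3% over all windows. The table also held Spz1, on the minus strand (chr13:92576183-92576482), with 0 CpG and 52.3% G and C, which no region touched. It matched 4 of the 7 genes, and Calcoco2, Zfp750 and Arg2 had no entry.

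Regions were compared within each pair. A region is shared where it overlaps a region of the other list of its pair by at least 1 bp, and otherwise is called depleted-only, control-only, knockout-only or wild-type-only. Scores are the authors' own, 1 per region, with a minimum near 50 that fits minus 10 times log10 of the peak caller's p. They rank regions within a list only, so scores from different lists stand side by side as values and are not compared. For some regions, mainly those at gene ends, the percent of the list that scored lower is given too. The lists held 48730 depleted, 46847 Ubc9-control, 58039 knockout and 55489 wild-type regions, and their read depth is unknown. The depleted list stood apart: 50.3% to 54.4% of its regions overlapped each of the other lists, against 73.4% and 75.0% of the Ubc9-control list that overlapped the H1 lists. At their gene ends, 8 of 10 stem cell marker genes were open in each list, among them Nanog and Sox2, while Pou5f1 and Esrrb were open there in none. Of 8 fibroblast and feeder cell marker genes, 1 was open in each list. The share of all genes open at an end is not given here, so these marker counts are a description only.

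**Figure D2:**
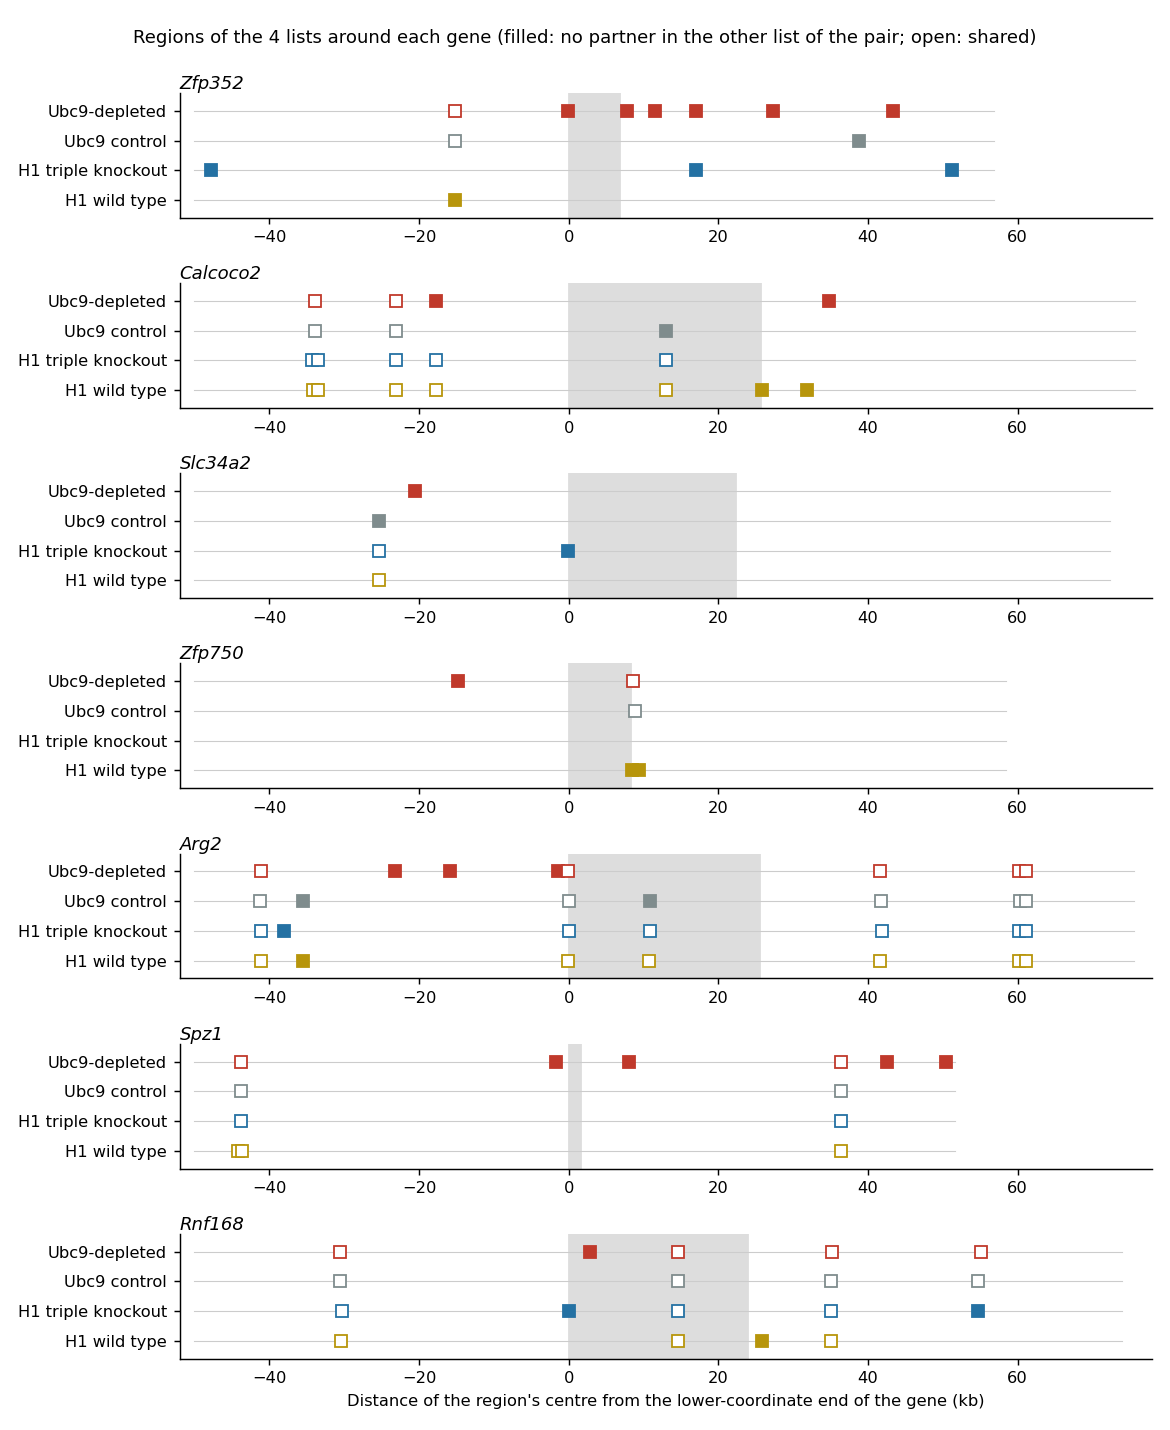
Regions of the 4 lists around each gene, by the distance of their centre from the lower-coordinate end of the gene (x axis, kb), 1 line per list, with the gene body in grey. Filled squares have no partner in the other list of the pair and open squares have one; squares are not drawn to the width of the region. Zfp352 and Spz1 show 6 and 4 filled depleted squares.

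Zfp352 encodes a zinc-finger protein and lies on chromosome 4 from 90218820 to 90225687, with no other annotated gene in its window. Of the 7 depleted regions there, 6 were depleted-only. The one over the start (chr4:90218456-90218996) scored 130.8, above 51.0% of its list. The strongest of these 6 (chr4:90230063-90230762), 4.38 kb beyond the gene, scored 227.9, above 75.4%. The others lay 0.826, 9.96, 20.2 and 36.2 kb beyond the gene and scored 74.7, 157.7, 81.7 and 114.1. All 6 thus lay over the start or downstream. The shared region of the pair lay 15.0 kb upstream and scored 252.8 in depleted cells and 133.0 in Ubc9-control cells, above 78.9% and 53.3% of those lists.

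The control list had a single region of its own around Zfp352, 31.8 kb beyond the gene with a score of 69.0. In the H1 pair, wild-type cells had only the upstream region (score 201.6). Knockout cells lacked it and had 3 others, with scores of 92.8, 92.6 and 67.2. The one of 92.6 overlapped the depleted-only region 9.96 kb beyond the gene. Loci open in both perturbed lists and in neither of the others numbered 1 of 46 around the 7 genes (2.17%), near the 1.44% of all loci. Neither H1 list had a region at the start of Zfp352.

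Spz1 encodes a transcription factor named for its role in sperm formation and lies on chromosome 13 from 92574631 to 92576232. Its window held 6 depleted regions and 2, 2 and 3 of the other lists. All regions of the other lists were at the starts or ends of its neighbours Zfyve16 and Serinc5, loci open in all 4 lists. At Zfyve16 the scores were 493.1 in depleted, 466.3 in Ubc9-control, 531.7 in knockout and 515.9 in wild-type cells, where the last belongs to a peak deposited as 2 pieces. The other 4 depleted regions had no partner in any list. The nearest lay 1.64 kb below the gene on the chromosome, which is downstream on the minus strand, and scored 87.3. The others lay 6.26, 40.7 and 48.5 kb above it and scored 163.6, 153.8 and 153.4. The last 2 of these lie within Serinc5. The start and end of Spz1 itself, with 1 kb on each side, held no region in any list.

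Zfp750 encodes a zinc-finger transcription factor of the epidermis and lies on chromosome 11 from 121510976 to 121519342, inside the span of Tbcd. Its upper end was open in 3 of 4 lists, with scores of 144.2 in depleted, 136.6 in Ubc9-control and 156.5 in wild-type cells, above 56.3%, 54.9% and 59.4% of those lists. H1 triple-knockout cells had no region in the whole 108 kb window. Wild-type cells had 2 there, the second with a score of 50.8, near the minimum. The depleted-only region, 14.6 kb below the gene and within Tbcd, scored 70.3.

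Rnf168 encodes a ubiquitin ligase that marks histone H2A around DNA breaks and lies on chromosome 16 from 32277461 to 32301442. The knockout-only region over its start (chr16:32277342-32277595) scored 84.7, above 20.9% of its list. Depleted cells had a region of their own 2.73 kb into the gene (score 112.2), and wild-type cells one 1.72 kb beyond its end (105.7). Further in, a locus 14.6 kb from the start was open in all 4 lists, with scores of 99.2 in depleted, 159.3 in Ubc9-control, 248.3 in knockout and 134.0 in wild-type cells. The locus shared by gene ends of Fbxo45 and Wdr53, 30.0 kb below the gene, was open in all 4 lists too, and scored 428.4 in depleted and 190.6 in Ubc9-control cells, above 92.0% and 71.6% of those lists. The locus at Ubxn7 (scores 152.2, 136.8 and 168.8) had no wild-type region.

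Calcoco2 encodes an autophagy receptor and lies on chromosome 11 from 96098916 to 96124560. Near its upper end, wild-type cells alone had a region (chr11:96124676-96124906, score 131.3, above 49.7% of the list). That region lies 0.116 kb beyond Calcoco2, within the gene Ttll6 and within 1 kb of an end of both genes. A second wild-type-only region lay 6.05 kb beyond the gene, in Ttll6, and scored 175.3. A locus inside Calcoco2 (chr11:96111782-96112167) was open in Ubc9-control (132.1), knockout (134.1) and wild-type cells (116.6) and not in depleted cells. The reverse held 17.7 kb below the gene, where depleted (67.3), knockout (96.6) and wild-type cells (107.1) had a region and control cells did not. The other depleted-only region scored 55.2, above 0.841% of its list. Regions at the neighbours Ube2z and Atp5g1 were in all lists. That of Atp5g1 scored 1031.9 in depleted cells, the highest score of the depleted list around these genes.

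Arg2 encodes mitochondrial arginase, which splits arginine into ornithine and urea, and lies on chromosome 12 from 79130788 to 79156301. Its lower end was open in all lists, with scores of 240.2 in depleted, 196.8 in Ubc9-control, 224.8 in knockout and 167.3 in wild-type cells, above 77.2%, 72.9%, 74.2% and 62.7% of each list. The depleted region there was 637 bp wide, against 232 bp in control cells. Regions of the whole depleted list were also the wider of that pair (medians of 431 and 367 bp). In the H1 pair the widths were 285 bp in knockout and 312 bp in wild-type cells. Below that end, 3 depleted-only regions lay at 1.24, 15.6 and 23.0 kb and scored 77.9, 230.1 and 69.9. No other list had a region at any of them. As in Calcoco2, a locus inside the gene (chr12:79141455-79141767) was open in Ubc9-control (110.0), knockout (121.6) and wild-type cells (76.2) and not in depleted cells.

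Slc34a2 encodes a sodium-dependent phosphate transporter and lies on chromosome 5 from 53049353 to 53071664. Its window held 1 or 2 regions in each list, none of them downstream of the start. The knockout-only region over its start (chr5:53049173-53049420), where the annotation also ends the non-coding gene Gm17182, scored 80.2, above 17.9% of the list. Upstream, a locus 25.1 kb away was open in Ubc9-control (197.2), knockout (277.2) and wild-type cells (184.2) and not in depleted cells. Depleted cells instead had a region of their own 20.3 kb upstream (194.8, above 69.8% of the list). The 2 loci lie 4.40 kb apart.

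**Figure D3:**
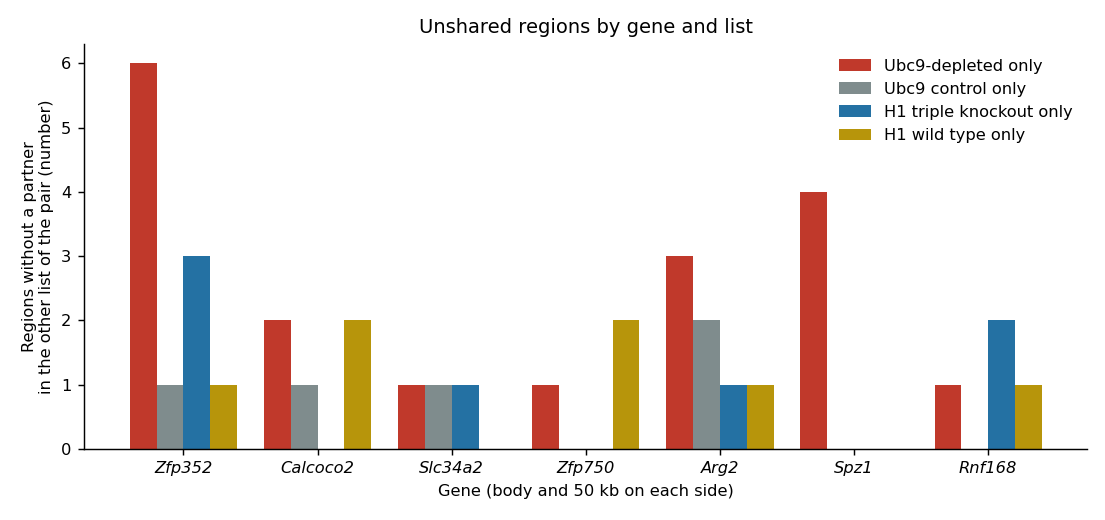
Number of regions with no partner in the other list of the pair (y axis) for each of the 7 genes with 50 kb on each side (x axis), 1 bar per list. The depleted bars reach 6 at Zfp352 and 4 at Spz1, and the other bars at most 3.

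Counted by gene, all 7 genes had a depleted-only region in their window, beside 66.9% of all protein-coding genes. Control-only regions were found at 4 of 7 (65.4% of all genes), knockout-only at 4 of 7 (67.0%) and wild-type-only at 5 of 7 (60.8%). With windows this wide such a region is common, so the number per gene says more. The median number of depleted-only regions was 2 for the 7 genes and 1 over all genes, and the median of each other kind was 1 in both. Zfp352 had 6, the most of the 7 genes, and 1.93% of all genes had as many or more. Among the 13422 genes whose window is at most 126 kb, the longest of the 7, 1.07% had as many or more. Spz1 had 4, a number found at 4.47% of all genes, with 5 at a further 2.13%.

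**Figure D4:**
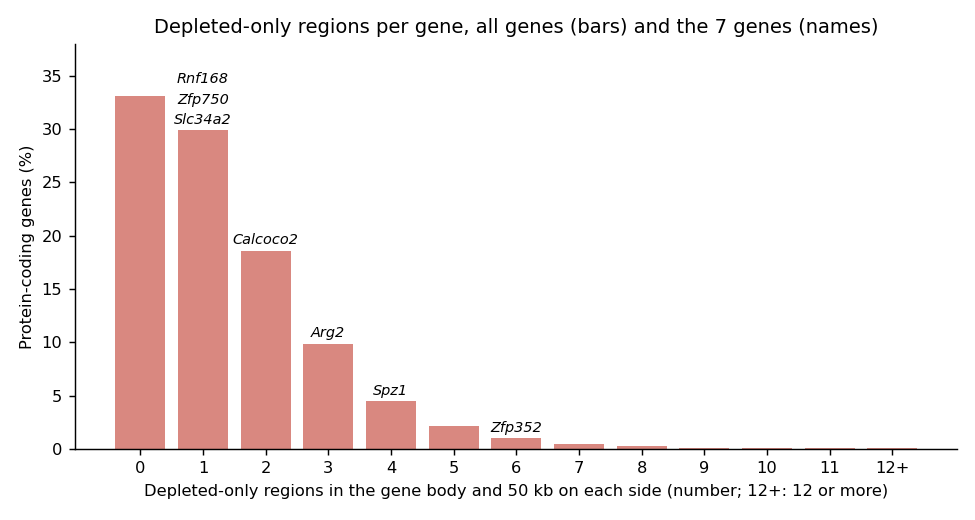
Percent of all protein-coding genes (y axis) by the number of depleted-only regions in the gene body and 50 kb on each side (x axis), with each of the 7 genes named above its bar. Slc34a2, Zfp750 and Rnf168 stand at 1, Calcoco2 at 2, Arg2 at 3, Spz1 at 4 and Zfp352 at 6.

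Counted by region, 18 of the 33 depleted regions were depleted-only (54.5%, exact binomial 95% interval 36.4 to 71.9, for counting error only), and without Zfp352 12 of 26 (46.2%). Over the whole depleted list it was 45.6%. In Ubc9-control cells 5 of 20 were control-only (25.0%, 8.66 to 49.1), and 43.3% of the whole list. Of the knockout regions 7 of 24 (29.2%, 12.6 to 51.1) and of the wild-type regions 7 of 25 (28.0%, 12.1 to 49.4) had no partner, beside 31.4% and 28.8% of those lists. All of these intervals hold the share of the whole list, but they treat regions around the same gene as independent. They are a description and not a test.

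The depleted-only regions scored between 55.2 and 230.1 with a median of 113.2, and the shared depleted regions had a median of 213.2. Their median width was 381 bp against 715 bp. Knockout-only regions had a median score of 84.7 and shared ones 216.2. Of the 18 depleted-only regions, 2 overlapped a region of either H1 list (16.2% of all depleted-only regions did), and of the 5 control-only regions 4 did (75.8%). Of the 18, 11 lay outside protein-coding genes and more than 1 kb from their ends, 5 inside genes and 2 at gene ends, both of Zfp352. Over all depleted-only regions, 69.5% lay outside genes, 24.6% inside and 5.90% at gene ends.

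Overlapping regions of the 4 lists were joined into 46 loci around the 7 genes. Depleted cells alone were open at 16 of them (34.8%), and this pattern made up 19.6% of the 94449 loci of the genome. Without Zfp352 it was 11 of 36 (30.6%). All 4 lists were open at 12 (26.1%, against 21.8%). Of these, 9 lay at the gene ends of neighbours such as Atp5g1, Vti1b, Rdh11 and Serinc5, and of the 7 genes only Arg2 had such a locus at its own end. The share at gene ends over all loci of this pattern is not given here, so the 9 are a description only. Loci open in all lists but the depleted one numbered 3 (6.52%, against 9.89%), those in Calcoco2, in Arg2 and upstream of Slc34a2.

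**Figure D5:**
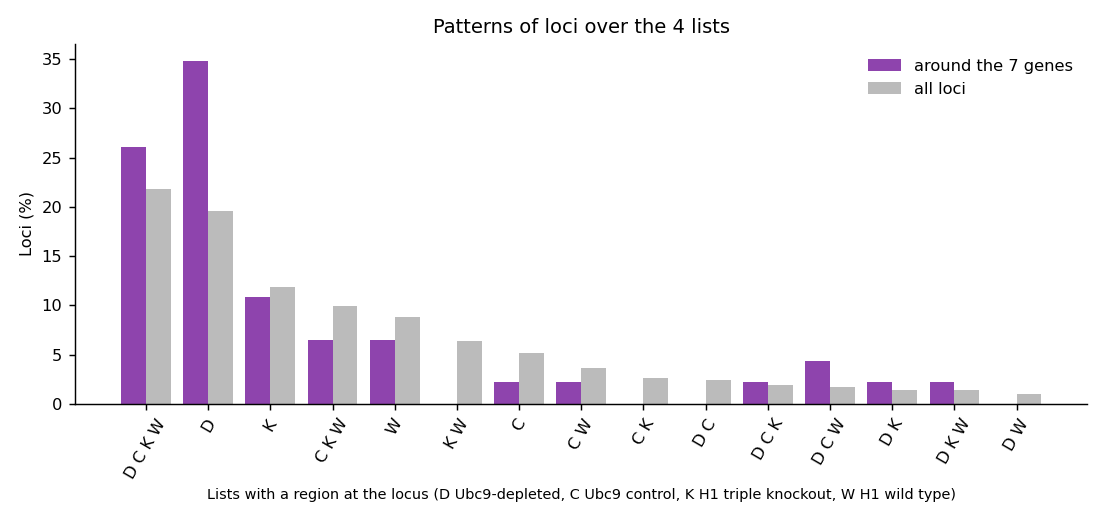
Percent of loci (y axis) by the lists that had a region there (x axis, D Ubc9-depleted, C Ubc9 control, K H1 triple knockout, W H1 wild type), for the 46 loci around the 7 genes and for all 94449. Loci of depleted cells alone make up 34.8% of the former and 19.6% of the latter.

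At the gene ends (each annotated end of a gene, plus or minus 1 kb), 5 of the 7 genes differed within a pair. Zfp352 had a gene-end region in depleted and not in Ubc9-control cells (1 of 7, against 5.29% of all genes). No gene had one in control cells alone, beside 4.02% of all genes. Slc34a2 and Rnf168 had one in knockout and not in wild-type cells (2 of 7, against 4.45%), and Zfp750 and Calcoco2 the reverse (2 of 7, against 4.78%). With a score of at least 100, 0 genes had a knockout-only end, and with 2500 bp at the gene ends 1 did, Slc34a2. Rnf168 dropped out at 2500 bp because the wild-type region 1.72 kb beyond the gene then counted as a gene-end region. The knockout-only regions scored above 17.9% and 20.9% of their list, and the wild-type-only regions above 59.4% and 49.7% of theirs.

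The genes most like each in the 4 lists were those with the nearest within-list percentiles of the strongest gene-end region. They were Zfp532 and Mesp2 for Zfp352 (distance 0.066 and 0.13 percentile points), Ttll6, which shares the region, and Fezf1 for Calcoco2 (0 and 0.37), and Speer4d and Galp for Slc34a2 (0.11 and 0.19). For Rnf168 they were Hsd3b6 and Plcd4 (0.016 each). Zfp750, with 3 open lists, and Arg2, with 4, had less close partners, Ranbp6 (6.3) and 6430628N08Rik (8.3), and Atp6v0e2 (1.7) and Fads1 (3.7). Where a single list is open, only 1 percentile is matched.

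Of 47 other genes of the 2-cell stage, most of them in multi-copy clusters, 43 matched the table. Of these, 14 had a gene-end region in depleted and not in Ubc9-control cells (32.6%, beside the 5.29% above), led by Gm4027 (score 424.2), Gm2016 (319.4), Zscan4f (306.4) and Zscan4c (298.4). Pramel6 (54.0) was the 1 gene the other way. Reads of near-identical copies may not be told apart, which leaves the count of separate genes uncertain. This list was chosen with earlier results of these data known, so its shares are a description and not independent support. Windows of close neighbours such as Gm2016 and Gm2022 also overlap, so a region can count for more than 1 gene. In the wider windows 39 of the 43 had a depleted-only region (66.9% of all genes), with a median of 3 and a maximum of 10. Control-only regions were there at 28 of the 43 (65.4% of all genes), knockout-only at 24 (67.0%) and wild-type-only at 20 (60.8%). In the H1 pair 1 of the 43 had a knockout-only gene-end region, Trim43b (60.1), and 0 a wild-type-only one, where the 7 genes had 2 and 2.

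Genes known to switch the 2-cell programme on or off were mostly open in every list. Of 24 matched, 21 had a gene-end region in depleted, 19 in Ubc9-control, 21 in knockout and 19 in wild-type cells. E2f6, a repressor of germline genes, had one in depleted cells alone within its pair (score 123.7) and in knockout cells alone within the other (85.2). Ehmt2, the histone H3 methyltransferase G9a, had one in depleted and not in Ubc9-control cells (60.8). Pcgf6, a Polycomb subunit, had one in knockout and not in wild-type cells (84.4). None had a control-only or wild-type-only one, beside 4.02% and 4.78% of all genes. Depleted-only and knockout-only ends were at 2 of the 24 each (8.33%), beside 5.29% and 4.45% of all genes. With so few genes, such counts say little about the regulators as a set. The share of all genes with any gene-end region is not given here.

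The limit of 50 kb was part of how regions were chosen. The outermost region inside it was the depleted-only region at 48.5 kb from Spz1 (score 153.4), and the nearest outside was a knockout region at 52.5 kb from Arg2 (129.2). Within 10 kb of the gene bodies lay 9 of the 18 depleted-only, 2 of the 5 control-only, 3 of the 7 knockout-only and 5 of the 7 wild-type-only regions.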

How the data were processed

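Per the submitters' processing notes, CASAVA 1.8.2, Bowtie2, Picard and MACS 1.4.2-1 were used with build mm10. Their settings, any shift of reads for the transposase and the way replicates were joined are not stated. Each reaction used 50000 cells and 12 PCR cycles, per the labels' protocols. The authors deposited 1 list per group, with a position and a score per region. The score is a peak score, not normalized for depth, and widths differ in form between the pairs (medians of 431 and 367 bp against 259 and 273 bp), so regions were compared within a pair.

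Overlaps, windows and counts were computed in Python 3.11.15 with pandas 2.3.3 and numpy 2.4.6, and exact binomial intervals with scipy 1.17.1. Positions are 1-based. The overlap and window steps were tested on simulated data. Exon and intron annotation was not used here, and the gene table has no strand, so both gene ends were used. All 7 genes were named, with up to 4 genes per other list and direction by score and the 2 most similar genes for each. The genes and lists were chosen with earlier results of these data known. The alternatives tried were other windows, a score of at least 100, a stricter overlap and equal numbers of regions.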

Additional observations from a re-analysis of the deposited data

How the results depend on the processing

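Leaving out a replicate was not possible, since each list was made from both. No paired analysis was possible because the result comes from no test and the lists carry no replicates. With equal numbers of top-scoring regions, and with sharing set to an overlap of at least 50% of the shorter region, which does not enter the gene-end counts, every count stayed within 1.5 times. So did the gene-end counts when the region itself had to be unshared, an alternative added after seeing the data.

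Within 10 kb, depleted-only regions numbered 9 in place of 18, control-only 2 in place of 5 and knockout-only 3 in place of 7, and 2 genes in place of 4 had a control-only and 3 in place of 5 a wild-type-only region. Fewer bases were searched. Within 100 kb there were 10 control-only and 11 knockout-only regions. With 2500 bp at the gene ends, 2 genes, Zfp352 and Spz1, had a depleted-only end and 1, Slc34a2, a knockout-only one. Rnf168 was lost there because the wild-type region 1.72 kb beyond the gene was then counted, and not because of its score. When regions of the counted list had to score 100 or more, 10 depleted-only, 3 control-only and 1 knockout-only regions were left, the last at 1 gene, and 0 genes had a knockout-only end. With that score in both lists the depleted-only regions numbered 10 and the knockout-only 2, at 2 genes, with 0 knockout-only ends. The knockout-only ends of Slc34a2 and Rnf168 thus rest on low scores. The depth of the libraries is unknown, so a missing region may lie below what was detectable.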
